A study of Mus musculus with 6 samples.

Results

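The genes described here encode surface proteins by which tumour cells signal to T cells, NK cells and macrophages: Cd47, Pvr, Nectin2, Cd276 and Cd274. They were chosen by gene symbol, and all 5 members were found among the 24181 genes of the count table. RNA was measured by 3'-end sequencing of MC38 cells, an established mouse colon adenocarcinoma line, grown in culture with no treatment named. There are 2 groups with 3 samples each by the labels: parental cells, whose genotype is given as WT, and MC38 cells that express STING-N153S, an altered form of the DNA-sensing adaptor STING. Columns could not be tied by name to the STING-N153S samples, which are not analysed here, so every value is from parental cells and no difference between the groups is reported.

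As background, Cd47 encodes a widely expressed membrane protein that binds SIRP-alpha on macrophages and restrains phagocytosis. Cd274 encodes PD-L1, the ligand of the T cell inhibitory receptor PD-1, and is known as an interferon-inducible gene, while Cd276 encodes B7-H3, another member of the B7 family. Pvr (CD155) and Nectin2 (CD112) encode adhesion molecules of the nectin and nectin-like group. Both are ligands of the activating NK and T cell receptor DNAM-1 and of inhibitory receptors such as TIGIT.

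The 3 parental libraries held 3210024 to 4020023 counts and 16224 to 16892 genes with a count. Replicate 3 stood farthest from the other libraries in 193 of the 311 genes that varied between them beyond counting noise, so values that rest on it are given with and without it. Sting1 itself had 11.3, 10.9 and 14.6 CPM in replicates 1 to 3, where CPM is the count of a gene per 1000000 counts of its library. Of the intestinal epithelial markers, 3 of 8 listed were analysed (Krt8, Krt19 and Vil1), each with 1 count over the 3 libraries, so the labelled epithelial origin was not visible in these genes. Lymphocyte markers summed to between 0 and 0.595 CPM over the 4 of 7 analysed, with Cd8a at 0 counts. Of the 4 of 6 myeloid markers analysed, which summed to between 22.4 and 23.4 CPM, Cd14 made up 22.1 ± 0.805 CPM (SD, n = 3), and Lyz2 and Csf1r had 0 counts. The 4 fibroblast markers summed to between 171 and 196 CPM, with Col3a1 at 115 ± 8.80 CPM (SD, n = 3). The other markers of that list were lower, with means of 52.1 CPM for Dcn, 12.8 for Pdgfra and 3.58 for Col1a1.

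The genes lie on 4 chromosomes of GRCm38, with positions from GENCODE M21. Cd47 spans chromosome 16, 49800533 to 49915010, on the plus strand, and Cd274 chromosome 19, 29367455 to 29388095, also on the plus strand. Cd276 spans chromosome 9, 58524298 to 58555437, on the minus strand. Nectin2 (19716644 to 19750483) and Pvr (19903578 to 19921160) both lie on the minus strand of chromosome 7, 153.1 kb apart. Pvr is also an older name of Nectin2, but the table has a row for each symbol. The longest coding transcripts ran from 2735 bases (Nectin2) to 5250 bases (Cd47). Exons of Nectin2 overlap the antisense gene Gm20512, which had 4, 4 and 2 counts, exons of Cd276 overlap Gm10657, with 0, 1 and 0 counts, and exons of Cd274 overlap an antisense gene that is not analysed here. The sources used here do not say whether strand was used in counting, so reads of Nectin2, Cd276 and Cd274 could not be told apart from those of these partners.

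RefSeq promoter windows were found for 4 of the 5 members, all but Pvr, and the 250 bases before the start are shown for the highest member, Cd47, and for the lowest pair, Cd276 and Cd274, whose windows differ in base composition. Capitals mark matches to any of 7 motifs searched on both strands: the GC box GGGCGG, the interferon-gamma element TTCNNNGAA, the interferon-stimulated response core GAAANNGAA, the cyclic AMP element TGACGTCA, its core TGACG (which overlaps it), TATAAA and CCAAT. The windows are on GRCm38.p6, 5′ to 3′ on the strand of the gene, chr16:49855404-49855653 plus (the first of 2 windows listed for Cd47), chr9:58555034-58555283 minus and chr19:29367188-29367437 plus. The starts are those of RefSeq, and the windows of Cd47, Cd276 and Nectin2 lie inside the GENCODE gene spans given above. For Cd276 the end of the RefSeq window, past its start, matched no GENCODE transcript, while those of the other 3 members did.
Cd47: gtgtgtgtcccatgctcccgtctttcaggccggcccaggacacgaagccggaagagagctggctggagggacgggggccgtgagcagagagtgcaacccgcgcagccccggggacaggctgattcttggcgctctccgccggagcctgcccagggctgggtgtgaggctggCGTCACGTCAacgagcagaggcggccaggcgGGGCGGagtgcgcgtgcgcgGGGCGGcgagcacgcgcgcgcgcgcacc
Cd276: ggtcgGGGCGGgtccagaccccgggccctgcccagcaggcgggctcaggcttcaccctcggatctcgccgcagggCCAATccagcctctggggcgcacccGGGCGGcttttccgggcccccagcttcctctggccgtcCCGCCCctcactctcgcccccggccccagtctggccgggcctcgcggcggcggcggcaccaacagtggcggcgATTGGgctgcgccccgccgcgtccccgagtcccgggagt
Cd274: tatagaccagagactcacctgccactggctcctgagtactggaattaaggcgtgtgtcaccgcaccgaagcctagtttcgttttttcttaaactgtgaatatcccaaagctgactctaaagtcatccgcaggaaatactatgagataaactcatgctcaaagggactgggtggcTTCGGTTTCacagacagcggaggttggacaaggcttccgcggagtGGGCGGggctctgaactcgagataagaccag

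The Cd47 window was 73.2% G and C with 30 CpG dinucleotides, and 5.68% of the 32851 windows of this length were as G and C rich or more so. The Cd276 window reached 77.6% G and C with 29 CpG dinucleotides. The Cd274 window had 50.4% G and C and 11 CpG dinucleotides, beside medians of 52.4% and 6 over all windows, and that of Nectin2 had 62% and 16. A GC box stood in all 4 member windows, 2 in Cd47, 3 in Cd276, 1 in Cd274 and 2 in Nectin2, and in 32.7% of all windows. Cd47 alone of the 4 held the TGACG core, with 2 copies 79 and 74 bases before the start, and 17.8% of all windows held it. CCAAT matched 2 times in the Cd276 window, at 175 and 39 bases before the start, and in 33.8% of all windows. The interferon-stimulated response core matched 1 time, 76 bases before the start of Cd274, and in 7.13% of all windows. It was shortened after a search with 1 more base had matched none of the 4 (2.98% of all windows). The interferon-gamma element (7.02% of all windows), the full cyclic AMP element (1.55%) and TATAAA (12.4%) matched none of the 4. These are matches of letters in short windows, not measured binding.

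Cd47, the phagocytosis inhibitor, had by far the highest counts of the 5 genes. Its level was 181, 196 and 181 CPM in replicates 1 to 3 (609, 788 and 580 counts), or 186 ± 8.68 CPM (SD, n = 3). The 3 libraries lay close together (highest over lowest 1.08), and 95.4% of the genes in the table had a lower mean. Cd47 made up 75.7%, 74.1% and 76.9% of the summed level of the 5 members, which was 246 ± 15.9 CPM (SD, n = 3).

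The DNAM-1 and TIGIT ligands came next. Pvr had 44.4, 48.3 and 31.5 CPM in replicates 1 to 3 (149, 194 and 101 counts), or 41.4 ± 8.79 CPM (SD, n = 3), and replicate 3 was the lowest. Without replicate 3 the mean was 46.3 CPM. Nectin2 had 11.6, 17.4 and 20.6 CPM (39, 70 and 66 counts), or 16.5 ± 4.54 CPM (SD, n = 3), and replicate 1 was the lowest. Without replicate 3 its mean was 14.5 CPM.

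Both B7 family members were near the limit of what these libraries could count, which was taken as 3 counts, or 0.893, 0.746 and 0.935 CPM in replicates 1 to 3. Cd276 was counted 5, 5 and 4 times (1.49, 1.24 and 1.25 CPM), which gave 1.33 ± 0.141 CPM (SD, n = 3). Cd274 was counted 3, 6 and 3 times (0.893, 1.49 and 0.935 CPM), which gave 1.11 ± 0.335 CPM (SD, n = 3). Replicates 1 and 3 were at that limit for Cd274. The exact 95% Poisson intervals, which cover counting error only, ran from 0.184 to 2.61 CPM in replicate 1, 0.548 to 3.25 in replicate 2 and 0.193 to 2.73 in replicate 3. Without replicate 2 the mean of Cd274 was 0.914 CPM, below the 1 CPM that all 5 members reached over the 3 libraries. In the table as a whole 49.5% of genes reached 1 CPM, and 51.3% had a lower mean than Cd274.

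**Figure D1:**
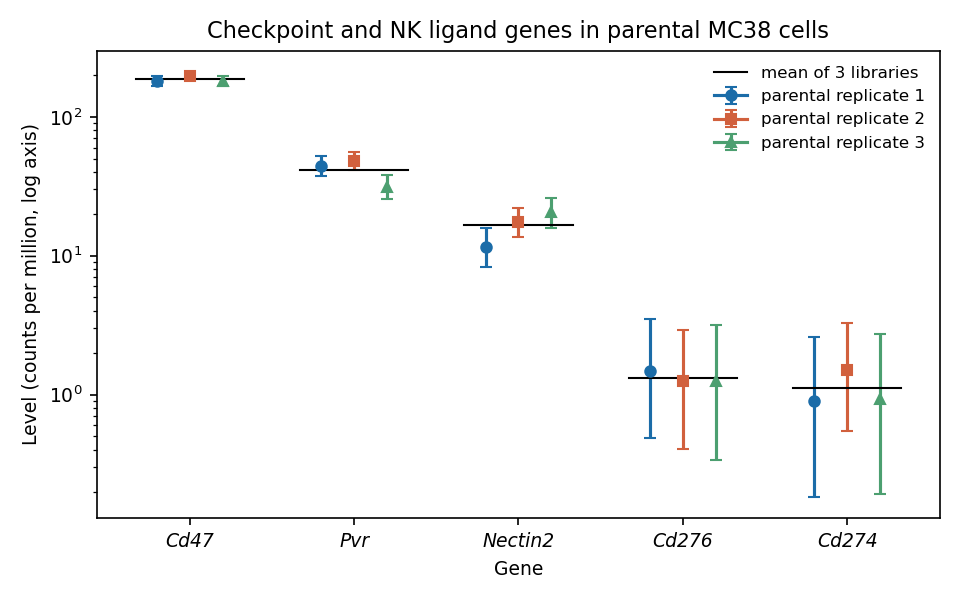
Level of the 5 genes in CPM on a log axis, with 1 point for each of the 3 parental libraries, exact 95% Poisson intervals as bars and the mean as a black line. Cd47 lies at 181 to 196 CPM, Pvr at 31.5 to 48.3, Nectin2 at 11.6 to 20.6, and the points of Cd276 and Cd274 overlap between 0.893 and 1.49 CPM.

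The order of the levels was Cd47, Pvr, Nectin2, Cd276 and Cd274. Because a 3'-end protocol reads each transcript near its end, CPM was not divided by length, and the order was also taken per kilobase of the longest coding transcript. It was the same, at 35.4, 14.2, 6.04, 0.368 and 0.306 CPM per kilobase. Cd47 counts exceeded Pvr counts in 3 of 3 libraries, 4.09, 4.06 and 5.74 times, and the ratio of their levels per kilobase was 2.56. Nectin2 exceeded Cd276 in 3 of 3 libraries, at ratios of 7.80, 14.0 and 16.5. The lowest pair did not differ beyond their spread: Cd276 over Cd274 was 1.67, 0.833 and 1.33, higher in 2 of 3 libraries. The exact 95% interval of its pooled ratio, for counting error only, ran from 0.501 to 2.76.

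Among the ratios between members, that of the 2 nectin-group ligands moved most from library to library, relative to its mean. Pvr over Nectin2 was 3.82 in replicate 1, 2.77 in replicate 2 and 1.53 in replicate 3. Pvr was higher in 3 of 3 libraries and the ranges of their levels did not overlap. The exact intervals ran from 2.67 to 5.58 in replicate 1 and from 1.11 to 2.12 in replicate 3, so these 2 did not overlap. They cover counting error only, and these are the libraries with the highest and lowest ratio, compared after the ratios were seen. The mean ratio was 2.71 ± 1.15 (SD, n = 3), and 3.30 without replicate 3.

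**Figure D2:**
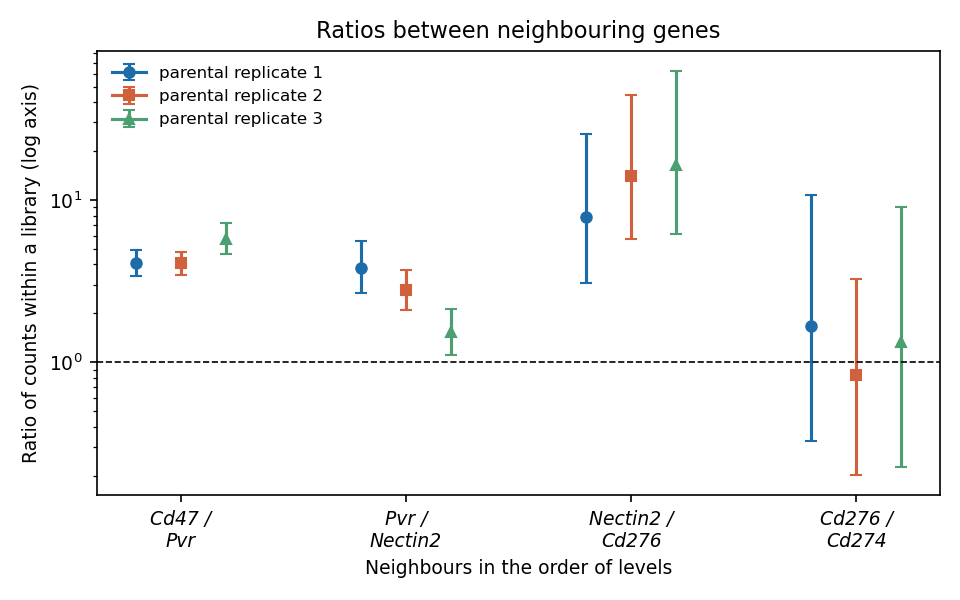
Ratio of counts within a library, on a log axis, between genes next to each other in the order of levels, with 1 point for each parental library and exact 95% intervals for counting error as bars. The dashed line marks equal counts: Cd276 over Cd274 spans it in every library, and Pvr over Nectin2 goes from 3.82 to 1.53.

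For all genes, the spread between parental libraries was set against counting noise (chi-square test, Benjamini-Hochberg adjustment over all genes tested). This compares libraries, not conditions, and in bulk RNA a change in the mix of cells and a change of RNA per cell cannot be told apart. Of 11118 genes tested, 2.80% varied at an adjusted p below 0.05. Of the members 3 had enough counts to be tested and 0 passed. Cd47 had an adjusted p of 0.729 and Nectin2 of 0.23, with an unadjusted p of 0.0178. Pvr had an adjusted p of 0.0642 and an unadjusted p of 0.00195. At an unadjusted p below 0.05, 2 of the 3 members and 13.2% of all genes stood. Pvr passed under other settings, with an adjusted p of 0.0398 in pairwise exact binomial tests and of 0.0296 when replicate 1 was left out, whereas without replicate 3 its adjusted p was 0.918. Over the alternatives its adjusted p ran from 0.0296 to 0.918.

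The SD of Cd47 was 4.67% of its mean, beside 3.92% from counting noise alone at its depth. For Pvr these were 21.3% and 8.32%, and for Nectin2 27.5% and 13.2%. The spread of Pvr and Nectin2 was thus more than counting noise gives on average, but it did not pass the test over all genes. Cd276 (10.6% against 46.4%) and Cd274 (30.2% against 50.8%) lay below the counting level.

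**Figure D3:**
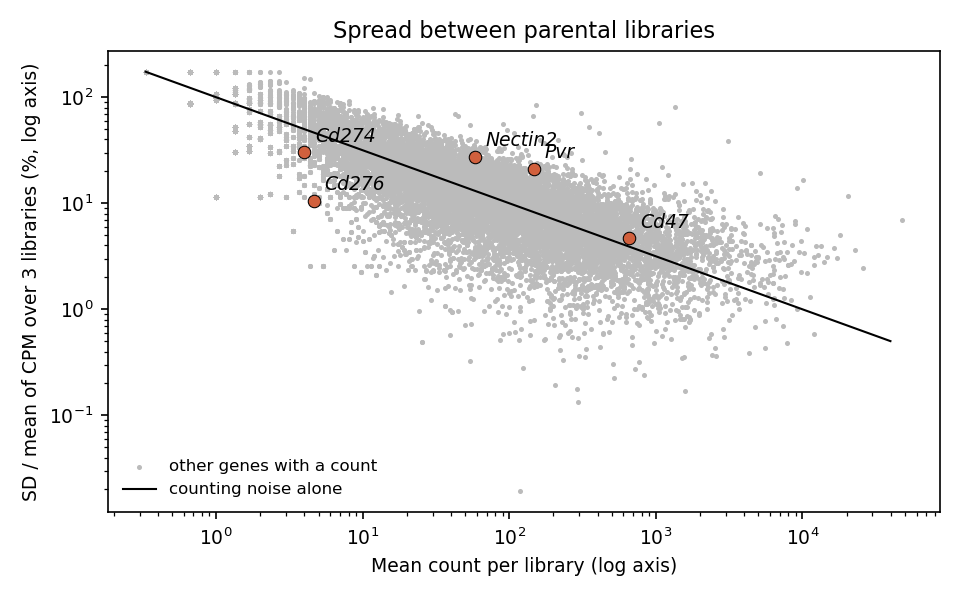
SD over the 3 parental libraries as a percentage of the mean CPM, against the mean count per library, both on log axes, for all genes with a count and a spread above 0 (grey) and the 5 members (orange). The black line is counting noise alone: Cd47 (4.67%) lies near it, Nectin2 (27.5%) and Pvr (21.3%) above it, and Cd276 and Cd274 below it.

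The other genes of these pathways were taken from 10 lists, of which 73 of 104 different genes were analysed, the members included. Of these, 48 (65.8%) averaged 1 CPM or more, 34 (46.6%) reached 10 CPM and 12 (16.4%) reached 100 CPM. Over all genes in the table the shares were 49.5%, 31.2% and 8.54%. Their median was 7.17 CPM, beside 0.941 CPM over all genes. The count test covered 45 of them and called 3, Thbs1, Calr and Hmgb1, where 2.80% of all genes tested were called. Without replicate 2, Thbs1 was the 1 gene called. The test calls smaller spreads at higher counts. Highest over lowest was 1.18 for Calr (6830 counts), 1.11 for Hmgb1 (9752) and 1.75 for Thbs1 (588). Pvr (1.53, 444 counts) and Nectin2 (1.77, 175 counts) were not called.

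In the CD47 list, 6 of 7 genes analysed reached 1 CPM. Thbs1, which encodes thrombospondin-1, a secreted ligand of CD47, had 58.9, 66.7 and 38.0 CPM and varied between libraries (adjusted p = 0.000156). Replicate 3 was the lowest for Thbs1, as it was for Pvr, and without replicate 3 Thbs1 was not called. Qpctl, whose enzyme modifies the SIRP-alpha binding end of CD47, had 7.74, 10.4 and 13.1 CPM. Calreticulin (Calr), known as a pro-phagocytic signal when it reaches the cell surface, had 674, 586 and 689 CPM, with replicate 2 the lowest (adjusted p = 3.46e-07). B2m, the MHC class I light chain, had 393, 408 and 395 CPM. Cd24a, another phagocytosis checkpoint, had 3, 4 and 0 counts.

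Among nectins and nectin-like genes, 4 of 9 analysed reached 1 CPM: Pvr, Nectin2, Nectin3 and Afdn. Nectin3, whose product binds Nectin-2 and PVR in adhesion, had 62.8, 50.5 and 52.0 CPM. In counts it was above Pvr in 3 of 3 libraries, at a mean ratio of 1.37, but per kilobase of transcript the ratio was 0.437. Their order thus depends on whether counts are divided by length, which a 3'-end protocol does not call for. Afdn, the cytoplasmic adaptor that links nectins to actin, had 101, 103 and 119 CPM. Nectin1 had 2, 4 and 0 counts, and Nectin4, Cadm1 and Cadm4 had 0 counts. The limit of 3 counts is 0.283 CPM over the 3 libraries, for counting error alone. Of the 4 tested genes of the list 0 varied between libraries, beside 2.80% of all genes.

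Few other B7 genes were counted. Besides Cd276 and Cd274, Cd80, a ligand of CD28 and CTLA-4, had 1, 0 and 1 counts and Vsir, which encodes VISTA, had 0, out of 4 of 9 listed genes that were analysed. Proteins that act on PD-L1 were represented by 14 of 14 genes at 1 CPM or more and 11 at 10 or more. Cmtm6 and Cmtm4, which shield PD-L1 from degradation, had 10.7 ± 0.864 and 54.0 ± 3.82 CPM (SD, n = 3), and Cmtm4 was above Cmtm6 in 3 of 3 libraries, 5.06 times in counts and 2.21 times per kilobase. The ubiquitin ligase genes Stub1 (209 ± 12.1 CPM) and Spop (111 ± 6.22 CPM) and the deubiquitinase gene Cops5 (166 ± 3.18 CPM; SD, n = 3) were at 100 CPM or more. Of these 14 genes 0 varied between libraries, which at 2.80% called over all genes says little of so short a list.

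The interferon receptors, kinases and transcription factors upstream of Cd274 were counted in 9 of 9 genes at 1 CPM or more. Irf1, a transcription factor that acts on Cd274, had 30.7, 38.3 and 32.7 CPM. Its count was 31.7 ± 5.21 times that of Cd274 (SD, n = 3), and per kilobase 53.7 times. The receptor-associated kinase genes Jak1 and Jak2 had 121 ± 9.27 and 11.1 ± 1.40 CPM (SD, n = 3). Of the 9 genes 0 varied between libraries, again beside 2.80% of all genes.

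Of NK ligands other than the nectin group, the NKG2D ligand genes Raet1e and Ulbp1 were counted in every library. Raet1e had 27.1, 29.4 and 28.7 CPM and Ulbp1 17.0, 18.4 and 14.3 CPM. Raet1d, a close relative of Raet1e, had 1 count, and since reads matching several relatives may have been split or dropped, the levels within this family are uncertain. Ulbp1 was above Nectin2 in 2 of 3 libraries, at a count ratio of 1.07 ± 0.382 (SD, n = 3), which did not differ from 1 beyond its spread, and per kilobase the ratio was 0.492. Icam1 and Cd48, ligands of lymphocyte adhesion receptors, had 0 counts. H2-T23, which encodes Qa-1, the ligand of the NK receptor NKG2A, had 7, 4 and 0 counts.

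Other ligands ranged widely. Lgals3, a galectin that has been tied to LAG-3, had 386 ± 5.51 CPM, Lgals9, a ligand of TIM-3, 7.17 ± 1.10 CPM and Tnfsf9, the 4-1BB ligand, 6.10 ± 2.15 CPM (SD, n = 3). Hmgb1, a nuclear protein that acts as a danger signal when released, had 951, 863 and 962 CPM and varied between libraries (adjusted p = 9.82e-05). Ptgs2, the cyclooxygenase of prostaglandin E2 synthesis, had 103 ± 6.29 CPM and Tgfb1 29.5 ± 1.95 CPM (SD, n = 3). The ectoenzyme genes Entpd1 and Nt5e, which make adenosine from ATP, had 0 and 2 counts over the 3 libraries. The death receptor genes Tnfrsf10b and Fas had 17.0 ± 4.21 and 1.60 ± 1.03 CPM, and Serpinb9, an inhibitor of granzyme B, 8.64 ± 1.00 CPM (SD, n = 3).

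The receptor genes analysed were almost uncounted, as were the lymphocyte markers analysed. Of 16 listed, 6 were analysed and 1 reached 1 CPM, Siglecg, the receptor of CD24, with 1.79 ± 0.267 CPM (SD, n = 3). Sirpa, Pdcd1 and Cd226, the genes of SIRP-alpha, PD-1 and DNAM-1, were not among the 6, so nothing is said of their levels. The Pvr and Nectin2 receptor genes Tigit and Pvrig, and Cd28, had 0 counts, while Crtam had 2, 0 and 4 and Havcr2 0, 2 and 1.

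**Figure D4:**
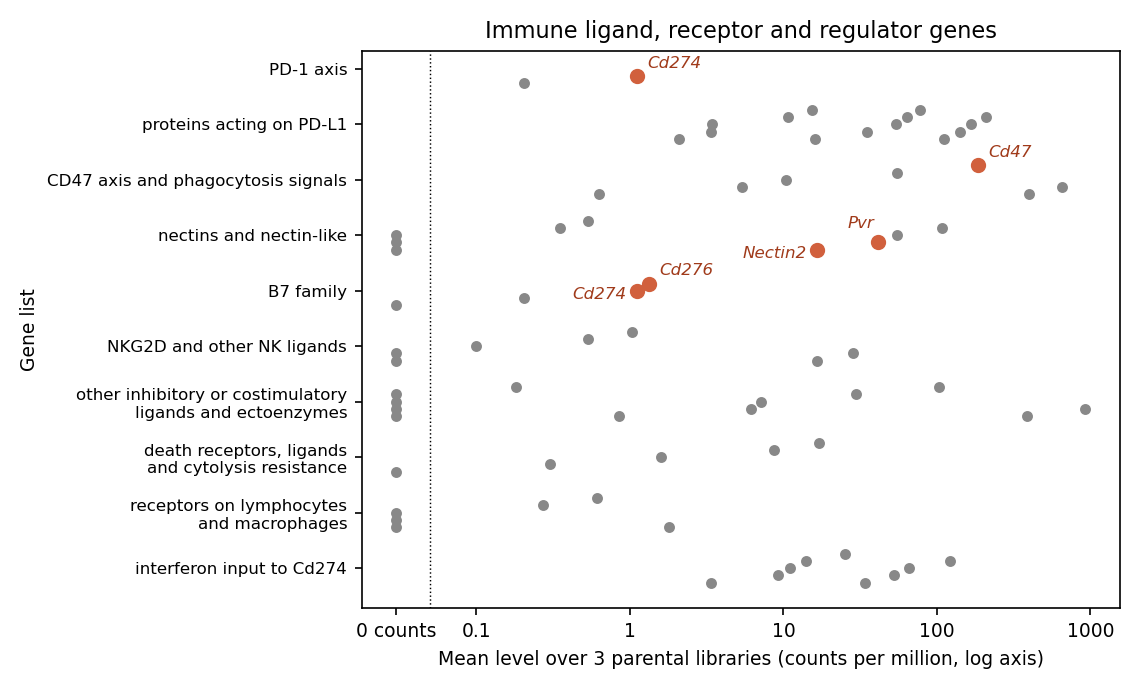
Mean level over the 3 parental libraries in CPM, on a log axis, for each analysed gene of the 10 lists, with genes of 0 counts left of the dotted line. The 5 members are orange: Cd47 (186 CPM) lies among the higher genes of its list, and Cd276 and Cd274 are the 2 highest of the 4 B7 genes.

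For each member the 3 genes with the most similar level in every library were taken, by the summed absolute difference of log2(CPM + 0.5) over 3 libraries. For Cd47 these were Snf8, an ESCRT-II subunit (0.03), Dpysl3 (0.06) and Cdc123 (0.06). For Pvr they were Ctdspl2 (0.13), Rasa1, a GTPase activator of RAS (0.13), and Fam210a (0.18). For Nectin2 they were Swt1 (0.18), Gpr137b (0.26) and Prpf18 (0.30). Since the measure picks genes close in each library, these genes share the profile of their member by selection. At the counts of Cd274 and Cd276 the measure picks identical whole numbers: AA474408, Gm17802 and Lef1os1 had the same 3 counts as Cd274, and Abhd15, Arhgap9 and Cbarp were among 8 genes with those of Cd276.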

How the data were processed

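Per the file headers, the authors aligned untrimmed reads to GRCm38 (GENCODE M25) and counted them per gene, using STAR 2.7.5b with Picard 2.18.26 and version 1.12 of Drop-seq tools. Primers carried sample barcodes and molecular identifiers, per the labels' protocols. Collapsing of the deposited counts by identifier, and the handling of reads that match more than 1 gene, are not given in the sources used here. Intervals and floors cover counting error only.

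Parental samples were matched by genotype and number to the 3 columns called wild type in the deposited annotation. The table has 6 other columns, in sets whose names match no label, and they were not used. The planned edgeR comparison of STING-N153S with parental cells was therefore not run. The annotation numbers the libraries as biological replicates, but nothing says they came from separate cultures, so p-values measure the spread between these samples, which may be technical.

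CPM are counts divided by library totals of 3358908, 4020023 and 3210024. The chi-square test took expected counts from median-ratio scaling, for genes with at least 5 expected in each library. Recovery by this test was checked in simulated Poisson counts of 24181 genes, 200 of them changed. The share of these found was 55% at a 1.5-fold change, 83.5% at 2-fold and 96% at 4-fold. The changed genes were drawn only from those with at least 20 expected counts in each library. Recovery of genes between the limit of 5 and 20 is therefore not known from these shares, which were also not split by count level. Apart from the changes, the simulation held counting noise only. In the real counts 13.2% of genes tested had an unadjusted p below 0.05 in the chi-square test. Alternatives used edgeR 4.0.16 (TMM), DESeq2 1.42.0 size factors, other filters, exact binomial tests and left-out libraries. Poisson and Clopper-Pearson intervals are exact. Other tools were R 4.3.3, Python 3.11.15 and scipy 1.17.1. The text names the members, Sting1, genes of the lists (10 of immune genes, 5 of cell type markers) and the 3 genes nearest each member in level. Members and lists were chosen with earlier results of these data known. Promoter sequences are RefSeq's. Some genes of the lists are not reported here.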

Additional observations from a re-analysis of the deposited data

How the results depend on the processing

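No paired analysis was possible because no STING-N153S sample had a mapped column, and the planned fits of STING-N153S against parental cells (edgeR, DESeq2, filters, the replicate block) were not run. Of 69 alternative values, 63 kept their direction and moved by less than 1 SD, or by 1.5 times or less for counts of genes. Leaving out 1 of 3 libraries cannot move a mean by 1 SD, so levels and ratios were kept there by construction. TMM and DESeq2 sizes were scaled to the same average as the totals, so they could hardly move a mean level. The 63 is therefore not a measure of robustness. Cd47 had 205 CPM when the 20 highest genes were taken out of the totals, because a smaller total raises every gene left in. Per kilobase, Cd47 over Pvr was 2.56 in place of 4.63, because the Cd47 transcript is longer. With each library left out in turn, 61 to 274 genes varied, against 311, with the lowest without replicate 3. It gave 0 to 1 varying members (Pvr, without replicate 1), and pairwise exact binomial tests gave 1. Leaving out 1 library, an alternative chosen after seeing the data, gave 1 to 4 varying genes of the immune lists against 3, with the lowest without replicate 2 (Thbs1), and 4 to 5 members at 1 CPM or more. Cd276 and Cd274, with 14 and 12 counts in all, are limited by depth.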

Other observations

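In the immune lists, 5 genes had counts in replicates 1 and 2 and 0 counts in replicate 3, and were picked after their values were seen: H2-T23 (7, 4 and 0 counts), Cd24a (3, 4 and 0), Nectin1 (2, 4 and 0), Clec2d (2, 4 and 0) and Nt5e (1, 1 and 0). A count of 0 in replicate 3 allows up to 0.935 CPM, and all but H2-T23 lay at or below 0.995 CPM in the other libraries. None of these 5 had enough counts for the chi-square test. Other genes of the lists had 0 counts in replicate 1 only: Cadm2 (0, 3 and 1) and Havcr2 (0, 2 and 1). Crtam (2, 0 and 4), Cd80 (1, 0 and 1) and Cd59a (2, 0 and 1) had 0 counts in replicate 2 only. The share of all genes with 0 counts in replicate 3 only was not computed, so the 5 are not read as a trait of replicate 3.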
